A study of Mus musculus with 39 samples.

Results

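Among 39 lymphomas of Eµ-myc mice, 3 tumours (numbers 6, 8 and 23 in the labels' numbering) carried a myeloid transcript profile, and they are described here against the B lymphomas of the same set. They were chosen by measured values, as the tumours whose log2 levels of both Pou2af1, a coactivator of B cell transcription, and Ly6k lay under 8. The 33 tumours with Pou2af1 at 8 or more are called B lymphomas below, and the other 3 tumours under 8 in Pou2af1 (numbers 5, 19 and 26) had Ly6k above 8. The Eµ-myc transgene drives Myc from the immunoglobulin heavy chain enhancer, so it is active mainly in cells of the B lineage. Every tumour in all 3 groups has this genotype and is labelled as lymphoma tissue, taken when the mouse was ill or had visible lymphoma. No second allele, treatment, age or strain is named in the labels, and there is no normal tissue or Myc-independent control.

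The choice rests on measured levels of the same arrays. Pou2af1 was 3.10, 3.41 and 5.09 in tumours 6, 8 and 23, and Ly6k was 4.74, 4.17 and 4.80. The B lymphoma nearest the limit was tumour 32, with Pou2af1 at 10.59, and tumour 26 lay just under it with Pou2af1 at 6.81 and Ly6k at 13.16. Ly6k under 8 was not particular to the 3 tumours: 25 of the 33 B lymphomas had it too. These 2 genes support nothing below. B cell genes follow Pou2af1 and are not independent of the choice, and the myeloid markers were named with the profile of these tumours in view. Adjusted p-values therefore describe how far apart the groups lie relative to the spread between tumours and are not evidence, independent of the choice, that the groups exist. Nothing in the labels ties each array to a mouse of its own, so that spread may be partly technical.

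RNA was hybridised to 1 short-oligonucleotide array per tumour, with array medians over all probe sets between 5.61 and 5.78 on the log2 scale. In all, 18191 genes were tested with no filter on dim genes. Across these genes, the 3 tumours resembled each other (Pearson's r 0.979 for tumours 6 and 8, 0.964 for 6 and 23, 0.969 for 8 and 23). Their median r with the B lymphomas was 0.905, 0.906 and 0.921, while pairs of B lymphomas had a median of 0.972, between 0.883 and 0.990. These correlations are over genes, which are not independent replicates, and all arrays share the platform and normalization. Tumour 2 had the highest level among B lymphomas for many macrophage, T cell and interferon genes, and overlaps with it are named below. The 3′ minus 5′ signal of control probe sets for actin and Gapdh, which widens as RNA degrades, was 0.06, 0.04 and 0.09 in tumours 6, 8 and 23 and at most 0.40 in the B lymphomas, with a median of 0.08 (log2).

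Myeloid cells arise from haematopoietic progenitors under PU.1 (Spi1) and the C/EBP factors, which switch on integrins, Fc receptors, growth factor receptors and lysosomal enzymes. B cells arise under Ebf1 and Pax5, which switch on Cd79a, Cd79b and the immunoglobulin genes and hold the myeloid genes off. Mature macrophages engulf particles and dying cells, degrade them in lysosomes and signal through chemokines and complement.

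Promoters of 3 genes that were high in all 3 tumours are shown as examples. Each of them holds a match, so they do not stand for the shares given below. The motifs are those of PU.1 and the C/EBP factors, and a link to the levels of these factors was not tested. Each run is the 250 bases before the start site from RefSeq (build GRCm38.p6), 5′ to 3′ on the gene's strand, and the capitals mark matches on either strand to the PU.1 core GAGGAAGT or to the C/EBP motif TTNCNNAA.
Itgam, chr7:128062390-128062639 (plus strand): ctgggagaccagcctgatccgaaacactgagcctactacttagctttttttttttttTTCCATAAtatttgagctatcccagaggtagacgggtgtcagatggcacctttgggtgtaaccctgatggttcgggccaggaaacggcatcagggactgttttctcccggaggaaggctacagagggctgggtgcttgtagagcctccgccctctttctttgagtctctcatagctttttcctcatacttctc
Slamf9, chr1:172475110-172475359 (plus strand): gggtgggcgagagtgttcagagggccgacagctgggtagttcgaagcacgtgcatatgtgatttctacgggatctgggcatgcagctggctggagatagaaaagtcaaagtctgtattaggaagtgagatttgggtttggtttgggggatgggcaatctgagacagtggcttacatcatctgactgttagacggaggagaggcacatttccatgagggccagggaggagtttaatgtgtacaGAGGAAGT
Marco, chr1:120505025-120505274 (minus strand): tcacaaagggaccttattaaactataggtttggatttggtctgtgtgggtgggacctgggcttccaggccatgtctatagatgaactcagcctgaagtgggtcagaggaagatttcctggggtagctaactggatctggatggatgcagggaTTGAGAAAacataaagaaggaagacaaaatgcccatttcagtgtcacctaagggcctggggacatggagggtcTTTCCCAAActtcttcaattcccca
Itgam held 1 C/EBP match, Slamf9 1 PU.1 match, and Marco 3 C/EBP matches, of which 2 overlapped. Of all 32851 promoters in the table, 2.44% held the PU.1 letters and 36.8% the C/EBP letters. Of the 77 members of 6 myeloid gene lists called higher in the 3 tumours, 61 genes had 80 promoters in the table, of which 4 (5%) held the PU.1 letters and 37 (46.2%) the C/EBP letters. The markers, the 30 largest rises and the 15 widest gaps made up 39 genes, of which 30 had 35 promoters in the table. Of these 35 promoters, 2 (5.71%) held the PU.1 letters and 11 (31.4%) the C/EBP letters, the latter below the share of all promoters. A match is a description of letters and not a bound site.

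The 4 myeloid markers were high in all 3 tumours and did not overlap with the B lymphomas. Itgam, the alpha chain of the integrin Mac-1, was 11.26 in tumour 6, 12.01 in tumour 8 and 11.58 in tumour 23, against 3.89 to 8.38 (median 4.76) in the B lymphomas. Adgre1, the macrophage surface receptor F4/80, was 13.05, 13.12 and 12.55 in the same order, against 5.92 to 9.90 (median 8.26). Cebpd, a C/EBP factor induced during myeloid activation, was 12.06, 11.99 and 12.00 against 5.00 to 9.69 (median 7.12). Spi1 was 10.89, 11.34 and 10.94 against 7.75 to 9.33 (median 8.32). The log2 differences between group means (limma, 3 tumours against 33, ± SE) were 6.49 ± 0.61 for Itgam (adjusted p = 1.1e-10), 4.80 ± 0.45 for Adgre1 (1e-10), 4.87 ± 0.45 for Cebpd (7.6e-11) and 2.71 ± 0.21 for Spi1 (3.9e-13). With the mean of all its probe sets in place of the brightest, Cebpd differed by 3.24 ± 0.25. Spi1 is also expressed in B cells at a lower level, and its lowest value in the 3 tumours still exceeded the highest B lymphoma.

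**Figure D1:**
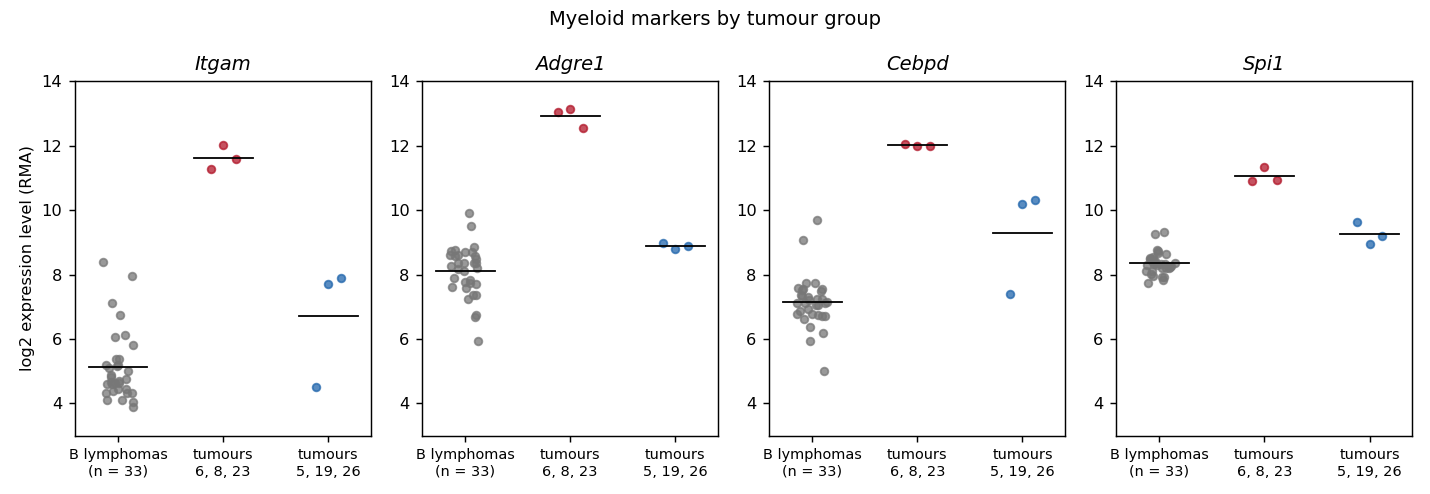
Log2 expression level (vertical axis) of the 4 myeloid markers in each tumour, by group (33 B lymphomas, the 3 tumours numbered 6, 8 and 23, and the 3 other tumours with Pou2af1 under 8); each point is 1 array and bars are group means. The 3 tumours lie above every B lymphoma in each panel, by the widest margin in Itgam (lowest of the 3 at 11.26, highest B lymphoma at 8.38).

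Over all 18191 genes, 3756 were called higher in the 3 tumours (20.6%) and 2532 lower (13.9%) at an adjusted p under 0.05 in limma, 34.6% in all. All 3 tumours lay above every B lymphoma for 990 genes (5.44%) and below every one for 459 (2.52%). The split between higher and lower depends on scaling: with each array centred on its median, 2332 genes were called higher and 3622 lower, and the share of higher calls fell from 59.7% to 39.2%. Centring shifted the median difference over all genes by -0.20, from 0.06 to -0.14, and differences below are read against that median. All 2332 genes called higher after centring were among the 3756. The gene lists that follow were drawn up with earlier results of these data known, and their counts describe the lists. In each list with no call in a direction, the count in that direction was also 0 at an unadjusted p under 0.05 in limma, the only tool run.

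Macrophage and monocyte identity genes were mostly higher: of 21 measured, 16 were called higher and 2 lower, with a median log2 difference of 2.23. The low-affinity IgG receptor gene Fcgr4 was 12.25, 12.26 and 10.56 in tumours 6, 8 and 23 against 4.77 to 10.70 (median 7.49), and the scavenger receptor gene Marco was 11.84, 10.22 and 12.16 against 5.48 to 9.50 (median 8.38). Cd68, a lysosomal membrane glycoprotein of macrophages, was 12.72, 12.83 and 12.67 against 8.55 to 11.40 (median 10.12), above every B lymphoma, and differed by 2.64 ± 0.32. Cx3cr1, the fractalkine receptor, was 7.26, 9.26 and 9.30 against 5.18 to 7.65 (median 5.75), and 2 B lymphomas reached the level of tumour 6. Lyz2 (lysozyme M) and Csf1r (the receptor for macrophage colony-stimulating factor) were called higher by 1.50 ± 0.38 and 1.46 ± 0.44, but both overlapped with the B lymphomas. Csf1r was 12.03, 11.57 and 13.14, and 4 B lymphomas exceeded the lowest of these, with tumour 2 the highest at 13.38; without tumour 23 the call of Csf1r was lost (adjusted p = 0.14). The array measures the tissue as a whole, so that more myeloid cells and more RNA per cell cannot be told apart, nor can myeloid transcripts of tumour cells and of infiltrating cells.

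Some macrophage genes were not higher, of which Mertk and Timd4 were picked after their values were seen. Mertk, a receptor for engulfing dying cells, was 6.61, 6.35 and 7.18 against 7.01 to 10.43 (median 7.64) and was called lower (-1.10 ± 0.37, adjusted p = 0.019). Timd4, another receptor of resident macrophages, was 4.57, 3.98 and 4.03 against 3.87 to 8.26 (median 5.84) and was also called lower (-1.78 ± 0.63). The mannose receptor Mrc1 and the haemoglobin scavenger receptor Cd163 were not called (differences of -1.02 ± 0.43 and -0.59 ± 0.76), and Mrc1 was called lower once arrays were centred. The calls of Mertk and Timd4 were lost without tumour 8 (adjusted p = 0.14 and 0.12) and without tumour 6 (0.092 and 0.060), and that of Timd4 also without tumour 23 (0.094). Cd163 differed among the 3 tumours, at 7.79, 5.72 and 3.90. Spic, the transcription factor of red pulp macrophages, was 4.99, 5.19 and 5.76, below every B lymphoma (6.45 to 8.64 (median 7.59)), and so was the iron exporter Slc40a1 at 5.70, 5.91 and 7.70 against 7.99 to 10.73 (median 9.87). Slc11a1, which pumps metal ions out of the phagosome, was in contrast 11.68, 11.10 and 10.91 against 6.35 to 10.53 (median 7.31), above every B lymphoma. Of 9 genes of the iron and haem list, 3 were called higher and 2 lower, beside 20.6% and 13.9% of all genes. The median difference was 0.13 and turned to -0.07 with centred arrays and to -0.04 without tumour 6. The list holds Hpgd, an enzyme of prostaglandin breakdown rather than of iron or haem, which was 1 of the 3 called higher. The remaining one is the ferritin heavy chain Fth1, whose call was lost with centred arrays and without tumour 6 or 8 (adjusted p = 0.16 and 0.10).

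The transcription factors of the myeloid lineage rose in most cases: 12 of 18 were called higher and 3 lower, with a median difference of 1.36. Cebpa, the factor that commits progenitors to the myeloid fate, was 10.18, 9.78 and 9.15 in tumours 6, 8 and 23, above the B lymphomas at 5.35 to 8.61 (median 6.22), and differed by 3.32 ± 0.39. Klf4, a monocyte factor, was 9.93, 9.84 and 9.11 against 5.44 to 8.24 (median 6.37), also without overlap, and differed by 3.24 ± 0.35. Egr2 was 7.52, 8.16 and 7.54 and overlapped with tumour 2 and 2 other B lymphomas. Its call was lost without tumour 8 (adjusted p = 0.052). Irf8, which directs monocyte and dendritic cell fate and is also made by B cells, was 9.70, 9.67 and 9.89 within the B lymphoma range of 8.80 to 13.10 (median 10.44) and was not called. Bhlhe40 was not called either (0.80 ± 0.60). Gfi1, a repressor with roles in granulocytes and lymphocytes and a recurrent partner of Myc in lymphoma, was 2.87, 3.35 and 3.15, below every B lymphoma (4.22 to 10.46 (median 9.27)), a difference of -5.78 ± 0.75. Tfec, with Spic the third factor called lower, differed by -1.98 ± 0.47.

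Growth factor and cytokine receptors were called higher for 12 of 17 members and lower for none, with a median difference of 1.46. Csf2ra, the alpha chain of the GM-CSF receptor, was 10.28, 10.57 and 10.62, above every B lymphoma (5.92 to 10.01 (median 7.43)). Csf3r, the receptor of granulocyte colony-stimulating factor, was 8.17, 8.41 and 8.30 against 4.64 to 7.30 (median 5.47), also without overlap. Tnfrsf1b, a TNF receptor, was 11.35, 11.49 and 9.47 against 6.67 to 10.20 (median 7.38), with tumour 23 lower than the other two and below tumour 2. The interleukin 6 receptor Il6ra was 10.28, 10.52 and 10.25 against 5.36 to 9.78 (median 7.21). Il13ra1 varied more, at 6.11, 8.76 and 9.62, and 5 B lymphomas reached the level of tumour 6. The progenitor cell receptors Kit and Flt3 were not called, with differences of -0.12 ± 0.50 and -0.75 ± 0.64.

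Pattern recognition and inflammasome genes were called higher for 16 of 23 members and lower for 2, with a median of 1.40. The C-type lectin receptor Clec4a2 was 11.23, 11.61 and 11.72 against 5.08 to 8.44 (median 7.02), a difference of 4.57 ± 0.34. Tlr2, a sensor of bacterial lipoproteins, was 10.83, 10.69 and 11.19 against 5.72 to 9.66 (median 7.05), and its partner Tlr1 was 11.62, 11.87 and 10.52 against 4.62 to 10.40 (median 8.20). All 3 genes lay above every B lymphoma. Casp1, the inflammasome protease, and Cd14, the coreceptor for lipopolysaccharide, were called higher by 3.06 ± 0.73 and 2.85 ± 0.49 and each overlapped with tumour 2. Irak3, which restrains Toll-like receptor signalling, was 11.22, 11.73 and 11.17 against 4.81 to 8.39 (median 6.63), with no overlap. The members called lower were Tlr7 (-1.25 ± 0.47) and Clec4n (-1.96 ± 0.57), and Clec7a, the receptor for fungal glucans, was not called (-0.55 ± 0.50). Without tumour 6 neither Tlr7 nor Clec4n was called (adjusted p = 0.16 and 0.077), and Tlr7 was not called without tumour 8 or 23 either (0.078 and 0.092).

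Fc, phagocytic and scavenger receptors were called higher for 15 of 22 members and lower for 3, with a median of 2.11. Fcer1g, the signalling chain shared by Fc receptors, was 13.51, 13.56 and 13.31 against 9.11 to 12.87 (median 10.06). Tyrobp (DAP12), the adaptor of many myeloid receptors, was 13.53, 13.57 and 13.50 against 9.57 to 13.28 (median 10.09). Both lay above every B lymphoma, and the highest B lymphoma for Tyrobp was tumour 32. Cd36, which takes up lipids and oxidised lipoproteins, was 13.03, 12.44 and 11.78 against 7.14 to 9.97 (median 8.39) and differed by 4.00 ± 0.46. The members called lower were Mertk, Axl and Msr1; without tumour 6 the list had 1 member called lower and without tumour 8 it had 0. Trem2, a lipid sensing receptor, was not called (0.29 ± 0.38), and its level ran from 6.35 in tumour 6 to 8.56 in tumour 23.

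**Figure D2:**
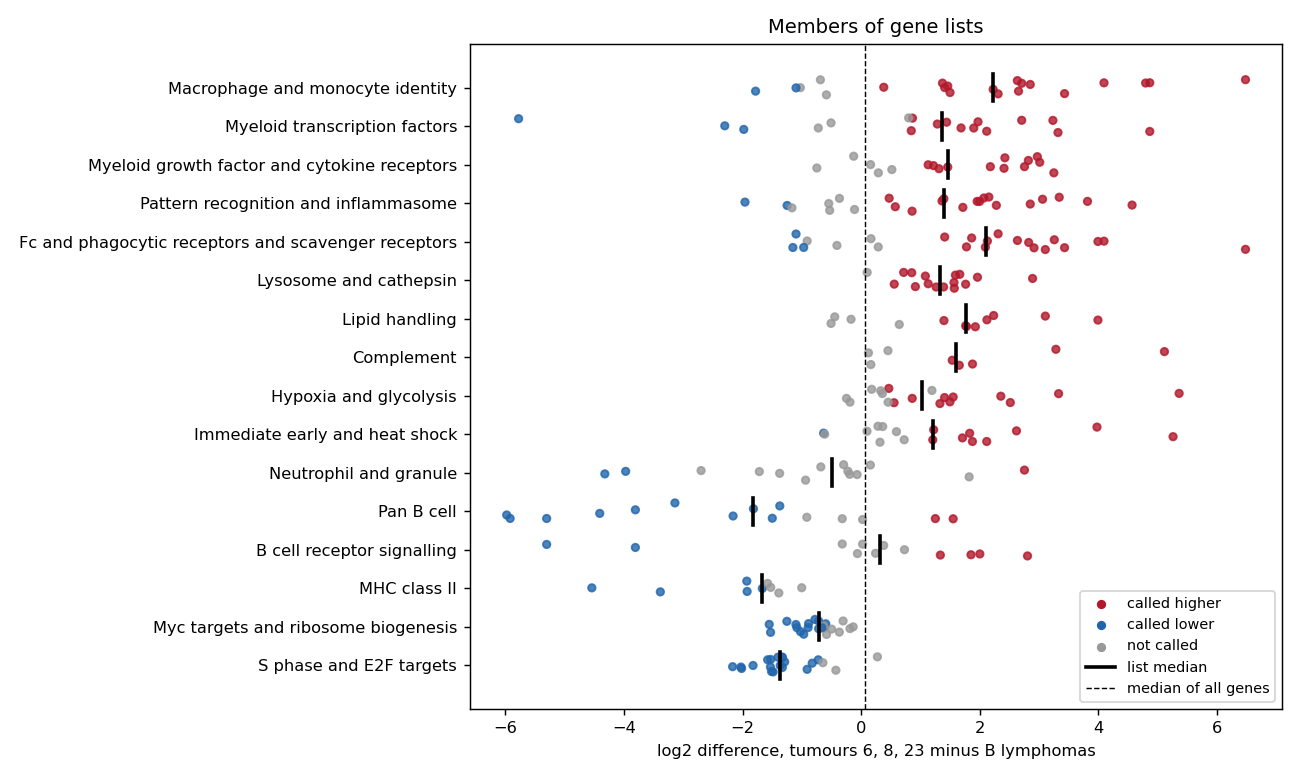
Log2 difference (3 tumours minus B lymphomas, horizontal axis) of each measured member of 16 gene lists (rows), with members called higher in red, called lower in blue and not called in grey; the black tick is the list median and the dashed line the median of all genes at 0.06. Lysosome members lie almost wholly to the right, while S phase members lie almost wholly to the left.

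Lysosomal and lipid genes rose together. Of 16 lysosomal genes 15 were called higher and 0 lower, with a median of 1.33. Legumain (Lgmn), an endolysosomal protease, was 12.18, 12.12 and 12.00 against 8.18 to 10.43 (median 9.20), and the lysosomal acid lipase Lipa was 10.88, 10.79 and 10.73 against 8.18 to 10.55 (median 8.93), both without overlap. Cathepsins L, S and H (Ctsl, Ctss and Ctsh) differed by 1.96 ± 0.49, 1.66 ± 0.39 and 1.59 ± 0.48, each overlapping with 1 to 3 B lymphomas; Ctsh missed the threshold without tumour 6 or without tumour 8 (adjusted p = 0.053 and 0.053). Cathepsin D (Ctsd) was not called, at 11.67, 11.24 and 11.56 within 10.15 to 12.24 (median 11.41). Ctsf, the gene of cathepsin F, had one of the widest gaps of all genes, at 10.96, 10.63 and 11.21 against 5.39 to 7.50 (median 5.94). Its difference was 4.91 ± 0.26 with the brightest probe set and 2.52 ± 0.15 with the mean of all its probe sets. Lipid handling genes were called higher for 8 of 12 members and lower for none, with a median of 1.77. Apoe was 13.55, 13.56 and 13.33 against 9.72 to 12.97 (median 11.12) and lipoprotein lipase (Lpl) was 13.75, 13.59 and 13.25 against 9.31 to 12.90 (median 10.34), neither overlapping. Lpl, Cd36 and Plin2 are also made by fat cells, and adipocyte genes were high in 2 of these tumours, as given below. The mean level of the adipocyte list was 11.27, 9.77 and 7.56 in tumours 6, 8 and 23. Lpl and Cd36 were also lowest in tumour 23, at 13.25 and 11.78, both above every B lymphoma. The part of fat cells in these values was not tested.

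The respiratory burst and complement genes moved in the same direction. Of 8 NADPH oxidase and burst genes, 5 were called higher and 0 lower, with a median of 0.89, and 3 were called higher without tumour 6 or without tumour 23. The oxidase subunits Ncf1 and Cybb differed by 3.40 ± 0.96 and 3.22 ± 0.83, Ncf1 overlapping with 2 B lymphomas and Cybb with 1, while the small GTPase Rac2 was 12.84, 12.98 and 12.76, just above every B lymphoma (10.94 to 12.56 (median 11.66)). Hmox1 and Sod2, which respond to oxidative stress, were not called. Of 8 complement genes, 5 were called higher and 0 lower, with a median of 1.60. C3ar1, the receptor for the anaphylatoxin C3a, was 11.29, 12.00 and 11.77 against 3.89 to 8.00 (median 6.72) and differed by 5.12 ± 0.59. C1qb and C1qc were called higher by 1.54 ± 0.35 and 1.66 ± 0.36, while C1qa, which encodes the remaining chain of the same protein, was not (0.45 ± 0.42).

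Chemokine genes included some wide margins, while the matrix list was called about as often as all genes or less (20.6% higher and 13.9% lower over all genes). Of 19 chemokine and receptor genes, 7 were called higher and 1 lower, with a median of 0.34. Ccl3 (MIP-1 alpha) was 11.40, 11.69 and 11.39 against 4.12 to 7.57 (median 5.64), a difference of 5.75 ± 0.52, and Ccl9 was 12.38, 12.46 and 12.60 against 7.07 to 10.58 (median 8.25), both with no overlap. Ccl4, a relative of Ccl3, differed by 1.23 ± 0.24, and Ccl12 was called lower, with a difference of -1.52 ± 0.61 and an adjusted p of 0.0495 in limma that rose above 0.05 without tumour 6, 8 or 23 (0.23, 0.14 and 0.070). Among 19 matrix protease and repair genes, 4 were called higher (Tgfbi, Mmp19, Fn1 and Thbs1) and 1 lower, with a median of 0.26. The chitinase-like gene Chil3 was the one called lower, at 4.65, 3.12 and 4.22 against 4.13 to 11.45 (median 7.27), a call lost without tumour 8 (adjusted p = 0.076), and the call of Thbs1 was lost without tumour 23 (0.92). Arg1, an enzyme of alternatively activated macrophages, was not called (-1.41 ± 1.20).

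Several of the widest separations from the B lymphomas lay outside these lists. Adgrg6, an adhesion G protein-coupled receptor, was 11.19, 11.53 and 11.53 in tumours 6, 8 and 23 against 4.59 to 6.61 (median 5.06), a difference of 6.23 ± 0.31. Gria1, a glutamate receptor subunit of neurons, was 8.09, 8.79 and 10.53 against 2.63 to 3.25 (median 2.90), and Tph2, the serotonin-synthesis enzyme of neurons, was 8.48, 6.66 and 7.89 against 2.56 to 3.27 (median 2.80). Ascl2, a transcription factor of intestinal stem cells and some lymphocytes, was 9.59, 9.67 and 9.50 against 4.45 to 5.15 (median 4.81). These values show no overlap, and every B lymphoma stayed near the bottom of the array's scale for Gria1 and Tph2. Siglecf, a sialic acid receptor of eosinophils and alveolar macrophages, was 7.29, 7.91 and 11.80 against 2.53 to 5.16 (median 2.91), with tumour 23 far above the other two. Fpr2, a formyl peptide receptor, was 12.85, 13.18 and 12.52, and 1 B lymphoma, tumour 2, reached 13.05. Ebi3, a subunit of the cytokines IL-27 and IL-35, was 12.63, 12.86 and 12.67 and Slamf9 was 12.70, 12.60 and 12.43. The highest B lymphoma for Ebi3, Slamf9, Gpr31b, Pgbd5 and St8sia6 was in each case tumour 1, at 10.38, 10.62, 6.73, 9.17 and 11.21, and for St8sia6 it exceeded tumour 23 (10.70).

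Markers of other myeloid lineages had few calls. Their counts were near or under the shares of all genes (20.6% higher and 13.9% lower) and are no result about the lists. Of 14 neutrophil genes, 1 was called higher (Csf3r) and 2 lower, with a median of -0.49. The calprotectin genes S100a8 and S100a9 were 6.87, 3.61 and 4.91 and 6.67, 4.10 and 4.20 in tumours 6, 8 and 23, against 4.88 to 13.18 (median 9.90) and 4.98 to 12.74 (median 9.32) in the B lymphomas. Both calls were lost without tumour 8 (adjusted p = 0.095 and 0.094), and that of S100a9 also without tumour 23 (0.074). The granule genes Mpo, Elane and Ctsg were between 4.29 and 5.31 in the 3 tumours. The list's mean level was 6.26, 5.26 and 5.69 in the 3 tumours against 4.88 to 9.06 (median 6.51) in the B lymphomas. Among 11 conventional dendritic cell genes, 2 were called higher and 1 lower. Batf3, a factor of cross-presenting dendritic cells, was 11.94, 11.74 and 10.88 against 5.30 to 9.15 (median 5.91), without overlap, while the dendritic markers Xcr1, Zbtb46 and Itgax were not called. Ccr7, which guides cells to lymph nodes, was 4.84, 4.45 and 5.13, below every B lymphoma (6.05 to 10.30 (median 8.69)). Mast cell, erythroid and megakaryocyte lists had 1 called member each (Mcpt4, Ermap and Gp9), all of them higher. Their medians were 0.04, 0.16 and 0.19 and turned to -0.17, -0.05 and -0.02 with centred arrays, and the first and last also to -0.12 and -0.03 without tumour 6. Mcpt4 was not called without tumour 6 (adjusted p = 0.84) and Ermap not without tumour 23 (0.17).

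Progenitor genes were called about as often as all genes (20.6% higher and 13.9% lower), so the count is no result about the list. Of 12, 3 were called higher and 1 lower, with a median of -0.11 that was 0.14 without tumour 23. Mecom (Evi1), a zinc finger factor of stem cells that is activated in some myeloid leukaemias, was 10.36, 11.98 and 8.84 against 5.11 to 6.82 (median 5.76), a difference of 4.57 ± 0.33. Its probe sets disagreed, with r as low as -0.36 between them, and the mean of all its probe sets gave 1.67 ± 0.11. Meis1 was 6.39, 6.65 and 6.14 and overlapped with 2 B lymphomas, and without tumour 8 it was not called (adjusted p = 0.057). Tal1, called higher by 0.75 ± 0.24, lost the call when arrays were centred and without tumour 6 or 23 (0.14 and 0.085). Myb, needed by progenitors and precursor B cells, was 5.88, 7.59 and 6.27, below every B lymphoma (7.93 to 12.53 (median 11.78)), a difference of -4.86 ± 0.61. Hoxa9 and Cd34 were not called.

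Many B lineage genes were low, among them most of the pan B cell list. Given as description, since Pou2af1 chose the groups, 10 of 15 pan B cell genes were called lower and 2 higher, with a median of -1.82. Cd79a, one chain of the signalling pair of the B cell receptor, was 3.95, 4.05 and 4.18 in tumours 6, 8 and 23 against 7.37 to 10.13 (median 9.43), and Ms4a1 (CD20) was 5.26, 4.17 and 5.06 against 6.40 to 13.67 (median 12.41). Tnfrsf13c, the receptor for the survival factor BAFF, was 4.55, 3.56 and 4.40 against 8.26 to 12.33 (median 10.16), and Bach2, a repressor of plasma cell fate, was 4.83, 5.39 and 4.90 against 8.16 to 12.25 (median 11.27). Vpreb3, Fcrla and Cd22 differed by -5.92, -5.98 and -4.41, each below every B lymphoma. Pax5 was 5.74, 5.81 and 4.96, and its highest value among the 3 exceeded 1 B lymphoma. Of 13 precursor B genes 4 were called lower and 0 higher, and of 13 mature B genes 6 were called lower and 1, the activation marker Cd83, higher.

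Some B lineage genes lay within the range of the B lymphomas, beside the myeloid genes. Cd79b, the partner of Cd79a, was 12.03, 12.51 and 11.70 within the B lymphoma range of 11.00 to 12.89 (median 12.48), and differed by -0.32 ± 0.22 (adjusted p = 0.28). Blnk, the adaptor that links the receptor to its kinases, was 12.08, 11.86 and 11.70 within 10.78 to 12.84 (median 11.83). Ebf1 was 10.47, 10.01 and 6.98 against 8.21 to 10.97 (median 10.23): tumours 6 and 8 lay within the range and tumour 23 below it. The immunoglobulin mu heavy chain Ighm was 12.74, 12.43 and 12.70 within 8.11 to 14.73 (median 13.79), and differed by -1.01 ± 0.61 (adjusted p = 0.21), while probe sets of this gene disagreed (r down to -0.23). Tumours 1, 2, 18 and 27 had a mean r with the other arrays of 0.948, 0.918, 0.953 and 0.958 over all probe sets, and tumour 32 also had 0.958. In a limma fit without tumours 1, 2, 18 and 27, Ighm was called lower (-1.13 ± 0.23, adjusted p = 0.00017). Without tumour 6, Ebf1 was called lower as well (0.032). The lambda gene Iglv1 and the joining chain Jchain were called lower, with differences of -3.97 and -2.92, and Igha was not called (-1.47 ± 1.14). Of these 4 immunoglobulin genes, the 2 called lower were 0 without tumour 6 or without tumour 8. Pou2f2 (Oct-2), the DNA binding partner of Pou2af1, was 8.51, 8.77 and 8.35, above every B lymphoma (6.09 to 7.97 (median 6.99)).

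Receptor signalling genes were mixed. Of 12 genes, 4 were called higher, 2 lower (Cd79a and the adaptor Bank1) and 6 in neither direction, with a median of 0.31. Over all genes, the shares were 20.6% higher and 13.9% lower. Pik3ap1 (BCAP), an adaptor for PI 3-kinase, was 10.61, 10.90 and 10.26 against 6.76 to 9.74 (median 7.64), and the exchange factor Vav1 was 10.60, 10.86 and 10.59 against 8.03 to 9.02 (median 8.65). Prkcb, a protein kinase C, was 12.49, 12.77 and 12.66 against 9.79 to 12.01 (median 10.86), and Dapp1 differed by 1.34 ± 0.23. All 4 lay above every B lymphoma. Btk, Syk and Plcg2, which myeloid cells also use downstream of Fc receptors, were not called, with differences of 0.24 ± 0.19, -0.06 ± 0.34 and 0.38 ± 0.16. With the most variable probe set in place of the brightest, Syk was called (-1.31 ± 0.33), and Plcg2 was called without tumour 23 (adjusted p = 0.037).

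**Figure D3:**
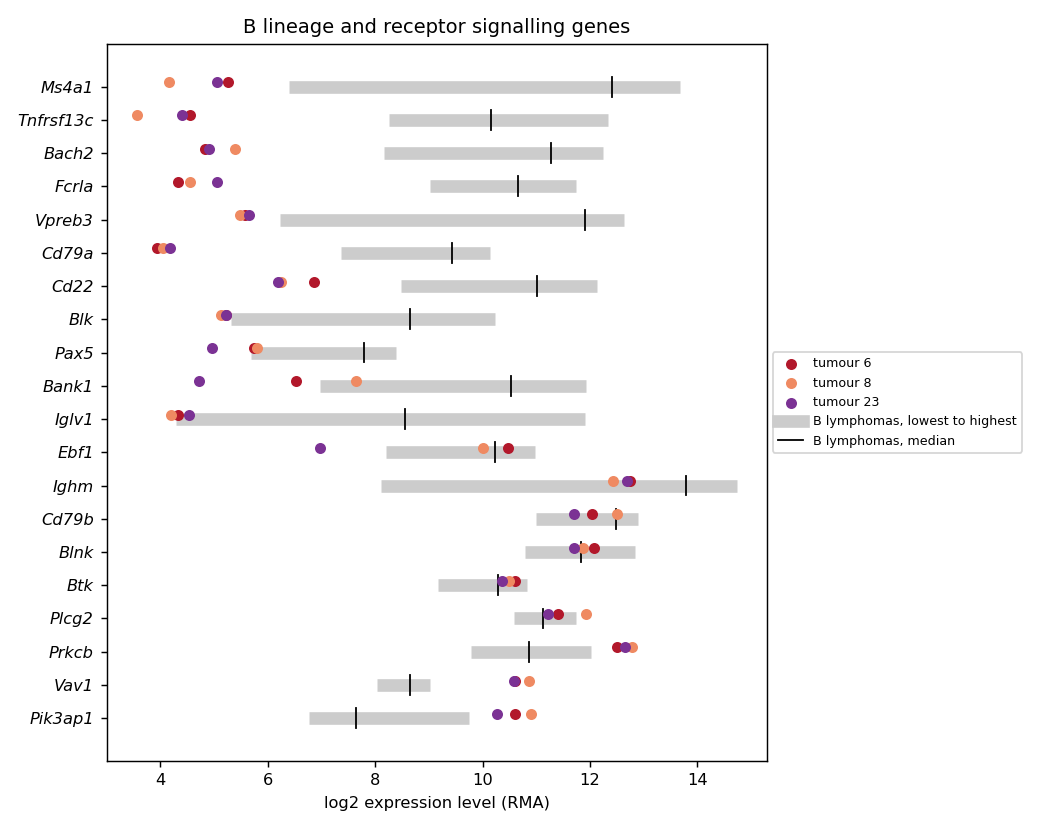
Log2 level (horizontal axis) of 20 B lineage and receptor signalling genes (rows); the grey bar spans the lowest to the highest of the 33 B lymphomas with a tick at their median, and coloured points are tumours 6, 8 and 23. Ms4a1, Cd79a and Bach2 lie left of the bars, Cd79b, Blnk and Ighm lie within them, and Vav1 and Pik3ap1 lie right of them.

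MHC class II and plasma cell genes were lower in part. Of 9 class II genes 5 were called lower and 0 higher, with a median of -1.67, and 3, 2 and 3 were called lower without tumour 6, 8 and 23 in turn. H2-Ob, a regulator of peptide loading, was 4.86, 4.84 and 5.19, below every B lymphoma (7.58 to 11.55 (median 9.65)), and Ciita, the class II master regulator, was 5.73, 5.53 and 5.56 against 5.20 to 10.28 (median 7.59). The classical chains H2-Aa and H2-Ab1 were 11.81, 11.03 and 11.41 and 10.31, 9.54 and 10.01; H2-Ab1 was called lower (-1.67 ± 0.57) and H2-Aa, at 9.92 to 14.07 (median 12.39) in the B lymphomas, was not called. Ciita was not called without tumour 6, 8 or 23 (adjusted p = 0.058, 0.072 and 0.057), and H2-Ab1 not without tumour 8 or 23 (0.13 and 0.061). Of 11 plasma cell genes 4 were called lower and 1 higher, with a median of -0.14 that was 0.12 without tumour 8 and 0.04 without tumours 1, 2, 18 and 27. Mzb1, a chaperone of immunoglobulin secretion, was 6.35, 6.10 and 6.65 against 11.08 to 13.33 (median 12.75), and Irf4 was 7.18, 5.95 and 4.88 against 6.92 to 10.96 (median 9.22). Xbp1, a regulator of secretion in plasma cells, was not called (0.34 ± 0.40).

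Most of the Myc targets measured were lower, while Myc itself missed the threshold. Myc itself was 10.88 in tumour 6, 10.58 in tumour 8 and 10.80 in tumour 23, against 8.19 to 12.63 (median 12.03) in the B lymphomas; its difference of -1.06 ± 0.44 missed the threshold (adjusted p = 0.058) and passed it with centred arrays (0.036) and without tumours 1, 2, 18 and 27 (4.7e-07). Of 12 Myc network genes, 1 was called higher and 2 lower. These counts were near or under the shares of all genes (20.6% higher and 13.9% lower) and are no result about the list. Mxd4, an antagonist of Myc that pairs with Max, was called higher by 1.21 ± 0.41, a call lost with centred arrays, and Mxd3 and Mxi1 differed by -1.03 and -0.83. Without tumour 6 neither of these 2 was called, nor without tumour 23, and Mxd4 was not called without tumour 6 or 8 (adjusted p = 0.11 and 0.15). Max, Mnt, Mlx, Mga, Mxd1, Mycn, Mycl and Mlxip had differences between -0.20 and 0.31 and were not called. Of 22 Myc targets and ribosome biogenesis genes, 15 were called lower and 0 higher, with a median of -0.72, and 8 were called lower without tumour 6 and 8 without tumour 8. Cad, which starts pyrimidine synthesis, was 9.12, 9.00 and 9.45 against 8.34 to 11.31 (median 10.85), and Odc1, the polyamine enzyme, was 11.16, 10.70 and 11.94 against 11.81 to 12.82 (median 12.37). Npm1 and Ncl were not called (-0.13 ± 0.13 and -0.37 ± 0.17).

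Most proliferation genes were lower. Of 19 G2/M genes, 17 were called lower (11 without tumour 6) and 0 higher, with a median of -1.27, and of 21 S phase and E2F genes, 18 were called lower and 0 higher, with a median of -1.36. The mitotic genes Ccna2 and Plk1 were 9.96, 9.79 and 10.64 against 8.96 to 12.57 (median 12.09) and 7.70, 7.70 and 8.85 against 6.96 to 10.23 (median 9.88). Ccne1, the cyclin of S phase entry, was 6.85, 7.56 and 7.97, below every B lymphoma (8.23 to 10.13 (median 9.71)). The mean level of the S phase list was 9.02, 8.99 and 9.91 in tumours 6, 8 and 23 against 8.53 to 11.01 (median 10.67) in the B lymphomas, and that of the G2/M list was 9.28, 9.35 and 10.27 against 8.29 to 11.46 (median 11.10). Tumour 23 was the highest of the 3 on both lists. Aurka, Bub1, E2f1, Gins2 and Tk1 were not called.

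The D cyclin and BCL2 family lists had few calls and, beside the shares of all genes (20.6% higher and 13.9% lower), their counts are no result about the lists. Of 13 D cyclin, kinase and inhibitor genes, 1 was called higher and 2 lower. Cdk6, a kinase of D cyclins, was 5.79, 5.52 and 6.29 against 5.79 to 12.13 (median 10.09), a difference of -4.02 ± 0.56, and Cdkn2d differed by -1.05. Cdkn1a (p21) was 10.06, 10.67 and 9.21 against 6.93 to 9.86 (median 7.81) and was called higher (2.12 ± 0.39). Cdkn2a, the tumour suppressor locus of p16 and Arf, was 4.14 in tumour 6, 8.06 in tumour 8 and 4.38 in tumour 23, so that tumour 8 stood apart; the B lymphomas ran 4.41 to 12.17 (median 7.49) and the difference was not called. The D cyclins Ccnd1, Ccnd2 and Ccnd3, the kinase Cdk4, and Rb1, Cdkn1b, Cdkn1c, Cdkn2b and Cdkn2c had differences between -1.23 and 0.56 and were not called. Of 18 p53 target genes 5 were called higher and 1 lower, counts near or under the same shares and likewise no result about the list. Among those higher were Plk2 (2.16 ± 0.53) and Phlda3 (1.44 ± 0.26). Of 14 BCL2 family genes 3 were called higher and 3 lower. Bcl2l11 (Bim), a death inducer that restrains Myc lymphomas, was 9.19, 9.34 and 9.35, below every B lymphoma (9.79 to 11.41 (median 10.74)). Bcl2 and Bid differed by -1.74 and -1.38, and Mcl1, Bmf and Bbc3 rose by 0.68, 1.60 and 1.15. Bcl2 was not called without any 1 of tumours 6, 8 and 23 (adjusted p = 0.069, 0.18 and 0.076), and Bmf not without tumour 8 or 23 (0.060 and 0.15). The median over the BCL2 family was 0.19 and turned to -0.02 with centred arrays.

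Hypoxia, immediate early and NF-kB genes included some of the highest rises. Of 18 hypoxia and glycolysis genes 11 were called higher and 0 lower, with a median of 1.03. Ndrg1, a hypoxia and differentiation response gene, was 13.49, 13.53 and 12.56 against 6.32 to 10.29 (median 7.67), and Car9, a carbonic anhydrase induced by hypoxia, was 7.17, 7.38 and 7.17 against 4.25 to 6.17 (median 4.58). Bnip3 and Aldoa were also above every B lymphoma, and Egln3 ran from 6.57 in tumour 6 to 10.96 in tumour 23. Ldha, Pkm and Vegfa were not called. Of 17 immediate early and heat shock genes 9 were called higher and 1 lower, with a median of 1.21. Atf3, a stress response factor, was 12.34, 11.90 and 11.16 against 5.36 to 8.13 (median 6.45), and Fos was 12.40, 11.90 and 10.32 against 6.27 to 9.70 (median 7.35), both with no overlap. Of 15 NF-kB targets 6 were called higher and 0 lower, with a median of 0.75. Nfkbiz, an inducible nuclear IkB protein, was 12.81, 12.83 and 12.67 against 6.67 to 9.98 (median 7.38), and Bcl3 was 9.96, 10.14 and 9.33 against 5.64 to 9.86 (median 6.21). Nfkbia and Icam1 were not called, and without tumours 1, 2, 18 and 27 both passed, with 10 of the 15 NF-kB targets called higher and 1 lower. Immediate early genes can also respond to handling of tissue, for which the labels give no record, and its part was not tested.

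Markers of other cells in the tissue were measured beside these groups. Over all genes, 20.6% were called higher and 13.9% lower. Apart from the fibroblast and adipocyte lists, the counts here lay near or under these shares and are no result about the lists. Of 12 T cell genes 0 were called in either direction by limma, and of 13 cytotoxic and NK genes 3 were called higher (Gzmb, Gzma and Ncr1) and 0 lower, with a median of 0.03 that turned to -0.17 with centred arrays. Without tumour 8, 1 of the 3 was called, and Gzma was not called without tumour 6 either (0.27). Among 11 fibroblast genes 4 were called higher, among them the matrix genes Postn and Col6a1 (2.37 ± 0.71 and 1.50 ± 0.25), and 2 without tumour 8, where Postn was not called (adjusted p = 0.11). Of 11 endothelial genes 1 was called higher (Pecam1, which myeloid cells also carry) and 1 lower (Plvap); Pecam1 was not called without tumour 6 or 8 (0.096 and 0.076). Of 15 interferon response genes 1 was called higher and 0 lower, against 4 higher without tumours 1, 2, 18 and 27 and 0 without tumour 6 or without tumour 8. Of 11 plasmacytoid dendritic cell genes 1 was called higher and 1 lower, and of 9 hepatocyte genes 0 were called. The adipocyte list had the most calls among these: 9 of 11 genes were called higher and 0 lower, with a median of 2.07, and without tumour 6 it had 5 calls. Its mean level was 11.27, 9.77 and 7.56 in tumours 6, 8 and 23 against 6.28 to 9.32 (median 7.49) in the B lymphomas.

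Genes of fat, salivary gland and muscle were among those that differed most between the 3 tumours. Adipoq, the fat hormone adiponectin, was 12.55 in tumour 6, 10.91 in tumour 8 and 8.23 in tumour 23, against 3.13 to 10.68 (median 7.71). Plin4 and Cidec, proteins of the lipid droplet, were 10.62, 8.30 and 7.07 and 9.79, 7.71 and 4.92 in the same order, and Ucp1, the uncoupling protein of brown fat, was 9.53, 10.81 and 4.35. Tumour 6 was highest for 3 of these 4 genes, and tumour 23 lowest for all 4. Salivary gland genes were high in tumour 8 alone of the 3: Bpifa2 was 5.49, 14.66 and 3.42, Pip 4.19, 13.43 and 4.00 and the amylase Amy1 8.78, 13.55 and 3.53. None of the 9 salivary genes was called between the groups. B lymphomas reached 14.84 for Bpifa2 and 14.18 for Amy1, both in tumour 25. Myh4, a myosin of fast muscle, was 10.42, 3.41 and 3.36, high in tumour 6 only. Adipoq, Bpifa2 and Myh4 all lay within the B lymphoma range in tumour 23. Itgam was 11.26, 12.01 and 11.58 in tumours 6, 8 and 23, and Adgre1 was 13.05, 13.12 and 12.55. The part of fat, gland or muscle tissue in these and other differences was not tested.

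**Figure D4:**
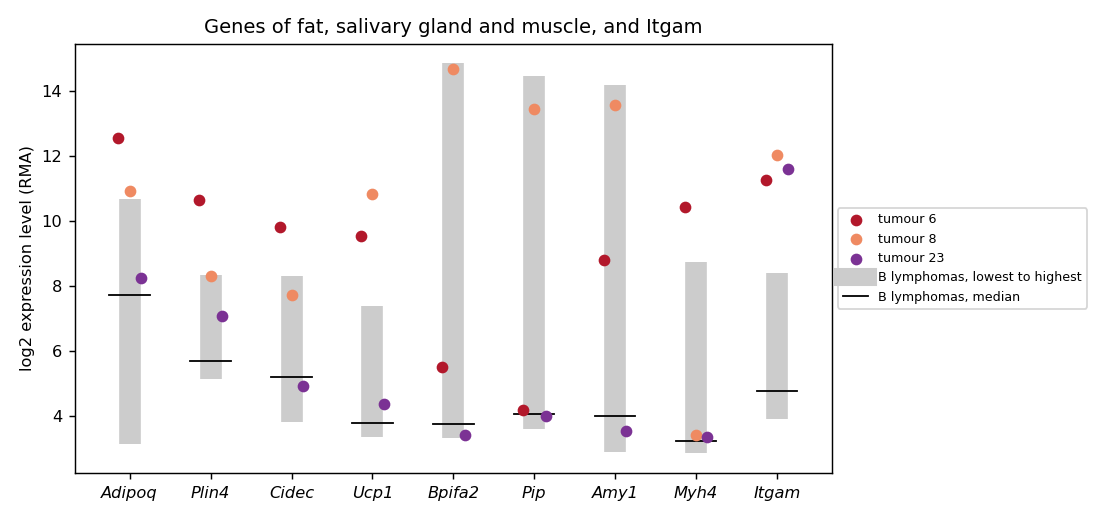
Log2 level (vertical axis) of genes of fat (Adipoq, Plin4, Cidec, Ucp1), salivary gland (Bpifa2, Pip, Amy1) and muscle (Myh4), with the myeloid marker Itgam last, in tumours 6, 8 and 23 (coloured points); grey bars span the 33 B lymphomas with a tick at the median. The fat genes are higher in tumours 6 and 8 than in tumour 23, the gland genes are high in tumour 8, and Itgam is alike in all 3.

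The other 3 tumours with Pou2af1 under 8 had the same genotype and allowed a second comparison, which shares tumours 6, 8 and 23 with the first. Among tumours under 8 in Pou2af1, the choice separated the groups by Ly6k alone. Genes that follow Ly6k across tumours are therefore not independent of the choice. In a fit over all 39 tumours in 3 groups, 2178 genes were higher in tumours 6, 8 and 23 than in tumours 5, 19 and 26 (12.0%) and 1327 lower (7.29%). With centred arrays the counts were 1321 and 1385, and the share of higher calls fell from 62.1% to 48.8%. All 4 markers were called higher here too, by 4.91 ± 0.88 for Itgam, 4.02 ± 0.60 for Adgre1, 2.73 ± 0.67 for Cebpd and 1.80 ± 0.28 for Spi1. Itgam was 4.50, 7.72 and 7.90 in tumours 5, 19 and 26, and Cebpd was 7.39, 10.19 and 10.30, so that tumours 19 and 26 lay closer to the 3 tumours than tumour 5 for both genes. The largest rises were St8sia6, a sialyltransferase, at 4.54, 5.00 and 4.93 in these tumours and a difference of 6.41 ± 1.17, and Pgbd5, a domesticated transposase gene, at 3.51, 3.96 and 3.50 and 6.20 ± 0.74. Fpr2 (6.01 ± 1.12), Adgrg6 (5.71 ± 0.46) and Mecom (5.18 ± 0.44) followed. Without tumour 6 the counts were 1332 and 731, without tumour 8 they were 1462 and 775, and without tumour 5 they were 1468 and 816. Cebpd missed the threshold without tumour 5 (adjusted p = 0.078) and in a fit on these 6 tumours alone (0.055).

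Some plasmacytoid dendritic and T cell genes were lower than in tumours 5, 19 and 26: 4 of 11 and 3 of 12 were called lower and 0 higher, against 7.29% of all genes called lower. Since Ly6k chose between these groups, the differences that follow are given as description. Cd8b1, a CD8 chain also present in mouse plasmacytoid cells, was 4.51, 4.81 and 4.23 in tumours 6, 8 and 23 and 13.21, 10.84 and 11.10 in tumours 5, 19 and 26, a difference of -7.20 ± 1.76. Siglech, a receptor that marks plasmacytoid dendritic cells, was 5.85, 6.06 and 6.41 against 11.30, 10.96 and 9.52, and Flt3 was 6.13, 5.96 and 5.88 against 11.72, 10.04 and 9.55. Of 9 MHC class II genes all 9 were called lower than in tumours 5, 19 and 26, with a median of -2.84. Mzb1, Ly6d and Cd7 had differences of -5.64, -6.70 and -5.59. Ebf1 went the opposite way, at 5.55, 5.95 and 5.68 in tumours 5, 19 and 26 against 10.47, 10.01 and 6.98, a difference of 3.42 ± 0.63 (adjusted p = 0.00012). Cd79a was low in both groups, at 4.83, 5.81 and 6.09 in tumours 5, 19 and 26, and was called lower, with a difference of -1.51.

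Several genes that stood far above the B lymphoma median were also high in some or all of tumours 5, 19 and 26. Tyrobp was 13.44, 12.91 and 12.64 in tumours 5, 19 and 26, Cybb 12.75, 12.00 and 11.80 and Ncf1 11.61, 11.50 and 11.29, with differences of 0.54 ± 0.70, 0.52 ± 1.10 and -0.55 ± 1.26, none of them called. Tyrobp was nonetheless lower in each of tumours 5, 19 and 26 than in tumours 6, 8 and 23. Nfkbiz and Cd36 were low in tumour 5 (8.78 and 8.17) but in tumours 19 and 26 were 12.56 and 12.35 for Nfkbiz and 12.82 and 12.32 for Cd36. In tumours 19 and 26, Nfkbiz lay just below its values in tumours 6, 8 and 23, and Cd36 lay within their range. Prickle1, a planar polarity gene, was 7.38, 11.19 and 11.31 and likewise not called (1.26 ± 0.75). Of 17 growth factor receptor genes 6 were called higher and 1, Flt3, lower, and of 21 macrophage genes 14 were called higher and 1, Timd4, lower. Over all genes, the shares in this comparison were 12.0% higher and 7.29% lower. The call of Timd4 was lost without tumour 5, 6, 8, 23 or 26 (adjusted p = 0.071, 0.059, 0.093, 0.066 and 0.13).

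**Figure D5:**
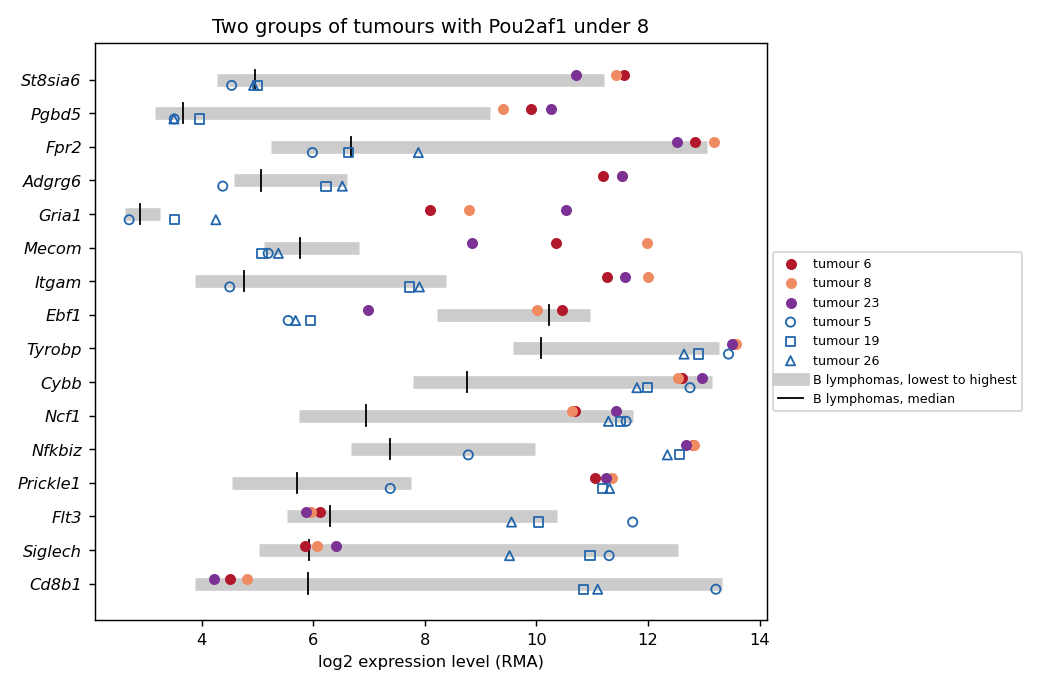
Log2 level (horizontal axis) of 16 genes (rows) in tumours 6, 8 and 23 (filled points) and in tumours 5, 19 and 26 (open points); grey bars span the 33 B lymphomas with a tick at the median. St8sia6, Fpr2 and Adgrg6 are high in the filled group, Siglech and Cd8b1 are high in the open group, and Tyrobp, Cybb and Ncf1 are high in both.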

How the data were processed

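Each of the 39 tumours was measured on 1 expression array. The deposited values are on the log2 scale. Per the submitters' processing notes, which name no version, RMA and affy were used to make them from the scanned arrays. RMA sets all arrays to 1 distribution, so a broad shift in RNA content is not seen. The number of arrays limits the precision.

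Of 45101 probe sets, 34958 carried 1 gene symbol in GEO's platform annotation, 932 several and 9211 were not listed; 34754 matched RefSeq by gene identifier. Each of 18193 genes was represented by its probe set with the highest mean over all arrays (9010 had several), and 18191 were tested, Pou2af1 and Ly6k left out. The labels give 1 group, so the groups were set by the Pou2af1 and Ly6k levels. The main test was limma 3.58.1 (R 4.3.3) with a mean-variance trend and Benjamini-Hochberg adjustment over all genes, on 36 tumours for the first comparison and 39 for the second, in the latter with 3 groups; "called" means an adjusted p under 0.05, and errors are SE unless stated. Tables were handled with Python 3.11.15 and pandas 2.3.3. Tested on simulated data of the same size, the first fit recovered 70.1%, 92.5% and 100% of genes changed by 1, 2 and 4 on the log2 scale. The second recovered 58.2%, 83.6% and 98.5%. The simulation changed 67, 67 and 66 genes by these sizes, while 34.6% of genes were called in the first comparison. It drew genes independently with 1 spread per gene for all groups, so recovery in the real data may differ.

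The groups and the 44 gene lists were chosen with earlier results of these data known; list members that matched no measured gene were not analysed here. Genes were named by rule, passing over clone and predicted gene names: the 4 markers; the 30 largest rises and 20 largest falls called; the 15 with the widest gap between the lowest of the 3 tumours and the highest B lymphoma; per list the 5 called members with the largest difference and the 2 not called with the highest level; all members of the Myc network, D cyclin and immunoglobulin lists; the 15 with the widest range among the 3 tumours and a value of 8 or more at either end; and the 10 largest each way in the second comparison. The text prints a selection. Arg1, Axl, Btk, Cd34, Cd68, Clec4n, Csf1r, Ctsg, Dapp1, E2f1, Ebf1, Elane, Hoxa9, Itgax, Lyz2, Mcl1, Mertk, Mpo, Msr1, Pax5, Plcg2, Pou2f2, Siglech, Syk, Tfec, Timd4, Tlr7, Tyrobp, Vegfa, Xcr1 and Zbtb46 were chosen after their values were seen. Alternatives covered the choice of probe set, a filter on dim genes, centring, the variance model, array weights, the tumours included, and each tumour left out; those without tumour 32, 5, 19 or 26 were added after seeing the data.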

Additional observations from a re-analysis of the deposited data

How the results depend on the processing

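Among the alternatives run, no printed gene changed sign with a call on either side. Genes not called did so in 42 of 3043 values of the first comparison and 82 of 2825 of the second, such as Ebf1 (-0.92, and 0.17 without tumour 23), Cd163 (-0.59 and 0.37 without tumour 23), Bpifa2 (1.50 and -1.90 without tumour 8) and Myh4 (2.07 and -0.27 without tumour 6). Centring arrays on the median of their gene values changed the number called higher from 3756 to 2332 against the B lymphomas. Against tumours 5, 19 and 26 it changed that number from 2178 to 1321. The balance turned in both, with 3622 and 1385 genes lower. Leaving out tumour 6, 8 or 23 in turn gave 2563 to 3572 genes higher and 1703 to 2115 lower than in the B lymphomas. Leaving out any 1 of the 6 tumours of the second comparison gave 1332 to 2396 higher and 731 to 1259 lower. All other counts stayed within 1.5 times the main one. Of the 218 genes printed, 142 kept their direction and call under all alternatives run in the first comparison and 123 in the second. Of 88 list counts (44 lists, each direction), 50 stayed within 1.5 times in all. No paired analysis was possible because the labels give 1 group and the groups compared share no replicate number. The arrays give no read depth, and genes near the bottom of the scale have no measured order.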
